A study of Mus musculus with 10 samples.

Results

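Ribosome-bound RNA from the primary somatosensory cortex of mice was compared between 3 libraries labelled Il-17ra-Cre and 4 libraries labelled Il-17rc-Cre. These are 7 of the 10 libraries of the series, chosen by their labels alone, and the comparison covers all 20301 genes that passed a filter on low counts. In Il-17ra-Cre mice the Cre recombinase is driven by Il17ra, the gene of a receptor subunit for interleukin-17 (IL-17), and in Il-17rc-Cre mice by Il17rc, the gene of another subunit. Mice of both genotypes received the same virus, AAV5-EF1α-Flex-EGFPL10a, at 400 nl per side in the S1DZ of the primary somatosensory cortex, and tissue was taken 4 weeks later. The construct adds a green fluorescent protein (GFP) tag to ribosomal protein L10a where Cre is present, so the tagged ribosomes come only from cells that the virus reached and that carried Cre. The p-values come from a fit of all 10 libraries of the series, which adds 3 libraries labelled Il-17rb-Cre to the estimate of the spread. Age, sex, strain background and whether replicates are separate animals are not given in the labels. The p-values therefore speak only of the spread among these 10 libraries, which may be technical.

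Translating ribosome affinity purification (TRAP) pulls tagged ribosomes out of a tissue lysate with antibodies against GFP and sequences the messenger RNA bound to them. A pull-down also carries some RNA of untagged cells, and without a library of the whole tissue, which was not analysed here, the 2 groups can be compared only with each other. In bulk libraries fewer cells of a type and less RNA per cell cannot be told apart. IL-17RA is a widely expressed subunit that pairs with other family members. Together with IL-17RC it forms the receptor for IL-17A and IL-17F, which signals through the adaptor Act1 to NF-kappaB and C/EBP transcription factors. In the brain these receptors have been described on neurons, astrocytes, microglia and cells of the oligodendrocyte lineage.

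Levels are given as CPM, the count as a rate per library size scaled by TMM, always in the order of replicates 1, 2 and 3 of Il-17ra-Cre and replicates 1, 2, 3 and 4 of Il-17rc-Cre. A log2 fold change is Il-17ra-Cre minus Il-17rc-Cre with its standard error, so positive values are higher in Il-17ra-Cre. Genes passed the test at an adjusted p under 0.05 in edgeR's quasi-likelihood test. Coordinates are those of GRCm38.

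The libraries within each group were uneven. Il-17ra-Cre replicate 3 held 165844244 counts, against 42642810 and 39692925 in replicates 1 and 2, and the Il-17rc-Cre replicates held 44669145, 68660776, 70995932 and 65290022. Across the 10433 genes whose average log2 CPM was 3 or more, the log2 CPM of Il-17ra-Cre replicates 1 and 2 correlated with a Pearson r of 0.966. Replicate 3 correlated with them at 0.837 and 0.865 and with the 4 Il-17rc-Cre libraries at 0.891, 0.924, 0.900 and 0.933, so it was more like each library of the other group than like its own. Within Il-17rc-Cre the pairs of replicates 1 and 3 (0.983) and 2 and 4 (0.961) were the most alike. These values are across genes, which are not independent, and they describe only the libraries.

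The genes that set Il-17ra-Cre replicate 3 apart were mostly lower in it. On a scale of CPM plus 0.5, it differed at least 4-fold from both others for 228 of the 10433 genes, 59 of them higher and 169 lower. Ptgds, a prostaglandin D synthase of oligodendrocytes and meninges, was at 3205, 1894 and 138 CPM in Il-17ra-Cre and 100.0, 178, 72.6 and 93.9 CPM in Il-17rc-Cre. Igha, the heavy chain of immunoglobulin A, was at 1046, 5944 and 56 CPM in Il-17ra-Cre and 324, 661, 120.1 and 132 CPM in Il-17rc-Cre. In the other direction Rpl10a, the mouse gene of the tagged ribosomal protein, was at 58.7, 70.9 and 679 CPM in Il-17ra-Cre and 267, 191, 266 and 228 CPM in Il-17rc-Cre. Its log2 fold change was 0.18 ± 0.7 over all libraries (edgeR adjusted p = 0.934) and -1.88 without replicate 3 (edgeR adjusted p = 7.01e-04). The summed level of cytosolic ribosomal protein genes was 9184, 7904 and 17111 CPM in Il-17ra-Cre and 9138, 9928, 10529 and 11719 CPM in Il-17rc-Cre. The sources do not say if reads from the construct's L10a part were counted as Rpl10a, so this was not tested.

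In Il-17rc-Cre the split lay between replicates 2 and 4 on the one side and 1 and 3 on the other. Both of the former differed at least 4-fold from both of the latter for 45 of the same 10433 genes, 41 higher and 4 lower. Among them was Cd74, the invariant chain of class II antigen presentation, at 549 and 569.9 CPM in replicates 2 and 4 and 49.3 and 58.9 CPM in replicates 1 and 3. Klk6, a secreted protease of oligodendrocytes, was at 3052, 2638 and 828 CPM in Il-17ra-Cre and 15.8, 465, 18 and 245 CPM in Il-17rc-Cre. The results are therefore given by library, and those of the main gene lists also without Il-17ra-Cre replicate 3.

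**Figure D1:**
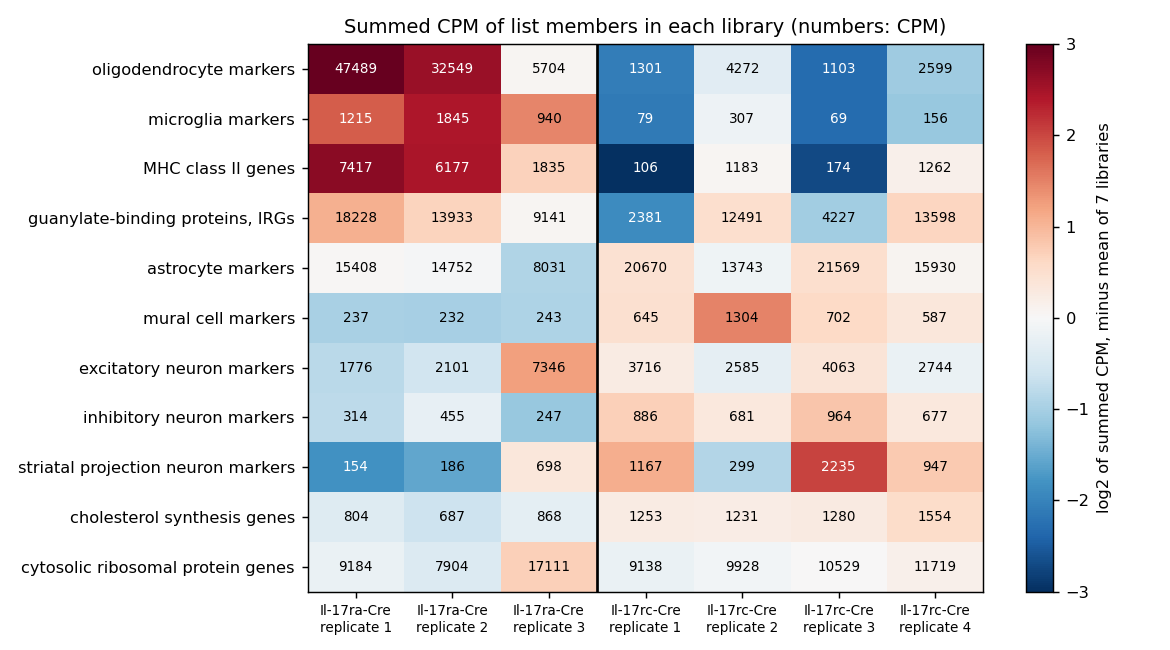
Summed CPM of the tested members of 11 gene lists in each of the 7 libraries, with the CPM printed in each cell and the colour showing log2 of the sum minus its mean over the 7 libraries. Oligodendrocyte sums run from 5704 to 47489 CPM in Il-17ra-Cre and from 1103 to 4272 CPM in Il-17rc-Cre, while Il-17ra-Cre replicate 3 has the highest excitatory neuron sum at 7346 CPM.

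The transcripts of the driver genes were at overlapping levels in both groups. Il17ra (ENSMUSG00000002897, chromosome 6, 120463247 to 120487559), the subunit that marks the first group, was at 16.7, 21.4 and 17.4 CPM in Il-17ra-Cre and 16.9, 15.6, 20.8 and 21.7 CPM in Il-17rc-Cre. Il17rc (ENSMUSG00000030281, chromosome 6, 113471427 to 113483140), the subunit that marks the second, was at 21.3, 25.7 and 41.2 CPM in Il-17ra-Cre and 20.3, 28.3, 24.9 and 39.9 CPM in Il-17rc-Cre. The groups overlapped for both genes, with log2 fold changes of -0.02 ± 0.22 and 0.06 ± 0.39 (edgeR adjusted p = 0.982 and 0.962), and the sign for Il17rc turned with DESeq2's scaling. The labels therefore rest on the driver lines as deposited, and neither receptor transcript checks them. Il17rb, whose product is the receptor subunit for IL-17E, stood at 1.75, 1.27 and 3.75 CPM in Il-17ra-Cre and 0.782, 1.49, 0.0667 and 2.72 CPM in Il-17rc-Cre, with a log2 fold change of 0.84 ± 0.86 and an adjusted p of 0.679 in edgeR.

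Of 11 genes of the IL-17 cytokine and receptor family, 8 were tested and 0 passed in edgeR. At an unadjusted p under 0.05 there was 1 higher and 0 lower, DESeq2 called 1 higher and 0 lower, and voom called 0. The 1 with a low p was Il17b, the gene of a cytokine that binds IL-17RB, at 0.755, 0.531 and 1.29 CPM in Il-17ra-Cre and 0.247, 0.194, 0.36 and 0.34 CPM in Il-17rc-Cre. Its libraries did not overlap, but the counts were few, between 20 and 220 in Il-17ra-Cre (log2 fold change 1.59 ± 0.49, edgeR adjusted p = 0.114, DESeq2 0.0331). Il17d, another cytokine of the family, was at 3.26, 5.07 and 6.02 CPM in Il-17ra-Cre and 7.49, 8.45, 8.69 and 2.89 CPM in Il-17rc-Cre and did not pass. Il17a and Il17f had no count in any of the 7 libraries.

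In edgeR 443 of the 20301 tested genes differed, 281 higher in Il-17ra-Cre (1.38% of tested genes) and 162 lower (0.798%). A difference of over 4-fold was reached by 144 of the higher and 31 of the lower genes, and in 424 of the 443 the libraries of the 2 groups did not overlap. Over all tested genes 1608 were higher without overlap (7.92%) and 1351 lower (6.65%). The median log2 fold change of all tested genes was 0.03. With DESeq2's size factors in edgeR the count was about the same, 442, but 216 were higher and 226 lower, so the surplus of higher genes depended on the scaling.

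The number of genes that passed depended on single libraries and on the third group. Without Il-17ra-Cre replicate 3 it was 2886 (1541 higher and 1345 lower), while without Il-17ra-Cre replicate 1 or 2, or Il-17rc-Cre replicate 3, edgeR called 0. At an unadjusted p under 0.05 these 3 fits had 2827, 2930 and 2856 genes. Without Il-17rc-Cre replicate 1, 2 or 4 the count was 4, 612 and 37, and with all libraries DESeq2 called 2087 genes and limma voom 4579. The 3 Il-17rb-Cre libraries enter the fit through the spread, the scaling and the filter. Over the 10433 genes with an average log2 CPM of 3 or more they correlated with each other at 0.983, 0.985 and 0.991. No pair within the 2 groups compared was more alike. The spread is estimated over all groups together, so that of the 2 groups compared may be understated. With the 7 libraries alone edgeR called 1 gene, with 3201 at an unadjusted p under 0.05, and without Il-17rb-Cre replicate 1, 2 or 3 it called 37, 15 and 43. These limits hold for every gene described below as having passed.

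**Figure D2:**
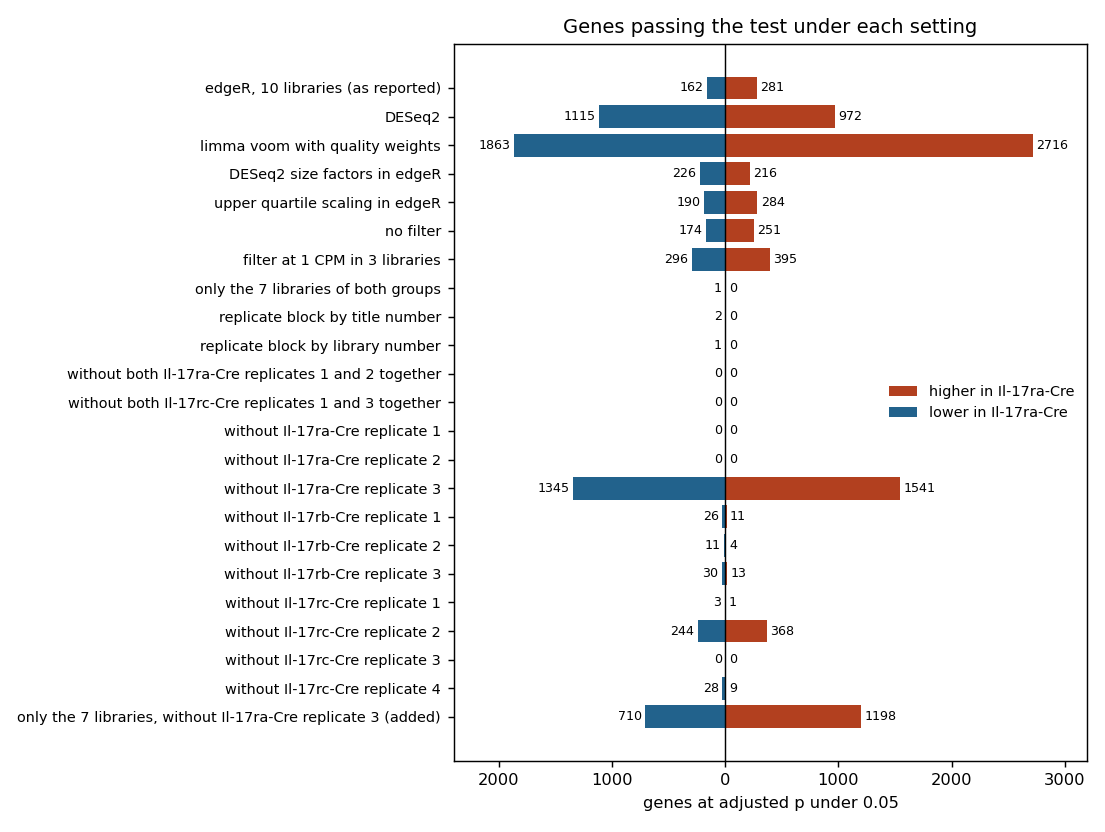
Number of genes at an adjusted p under 0.05 under each setting, higher in Il-17ra-Cre to the right and lower to the left of 0. The count runs from 0 in 5 of the fits that leave out libraries, through 443 as reported, to 4579 with limma voom.

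**Figure D3:**
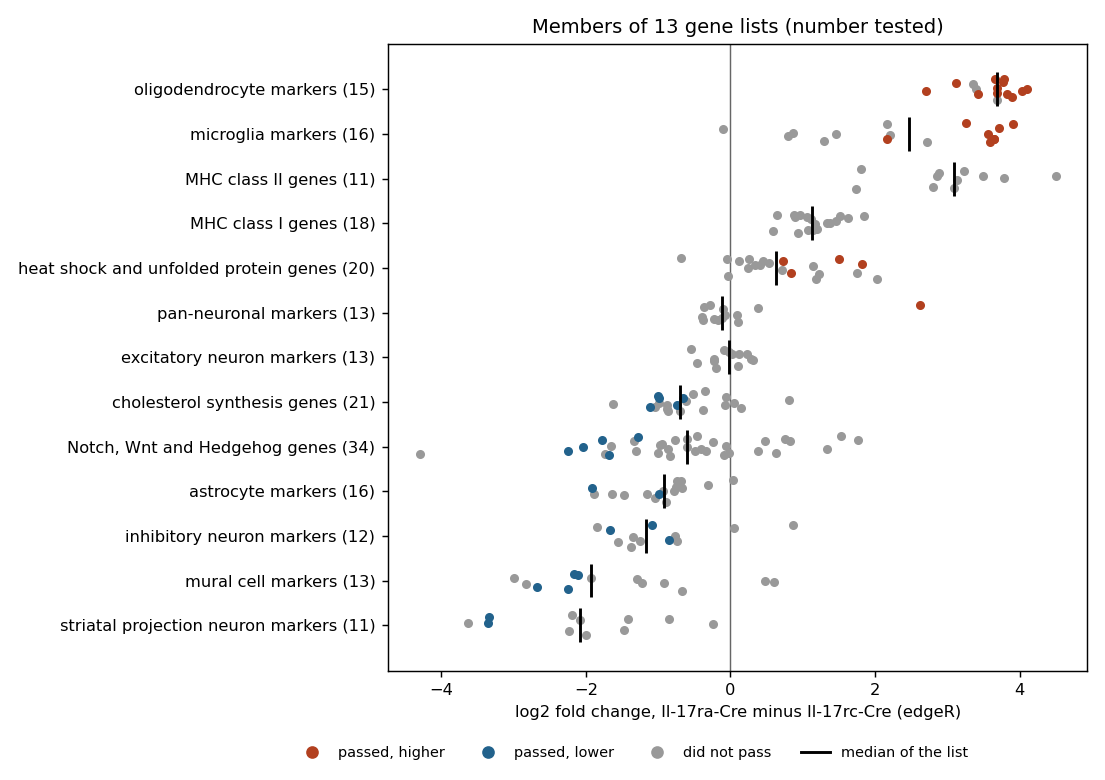
Log2 fold change (Il-17ra-Cre minus Il-17rc-Cre, x axis) of each tested member of 13 gene lists, with 1 point per gene, coloured by whether it passed the test, and the list's median as a bar. Medians run from 3.69 for oligodendrocyte markers to -2.08 for striatal projection neuron markers.

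Genes of myelinating oligodendrocytes were higher in Il-17ra-Cre, and their list had the highest median of the 50 gene lists. Of 15 oligodendrocyte markers 12 passed as higher and 0 as lower, against 1.38% of all tested genes, and the median log2 fold change was 3.69 against 0.03 over all genes. Mbp (ENSMUSG00000041607, chromosome 18, 82475146 to 82585637), myelin basic protein, which compacts the myelin sheath, was at 21977, 14207 and 2014 CPM in Il-17ra-Cre and 385, 1549, 269.8 and 772 CPM in Il-17rc-Cre. All Il-17ra-Cre libraries were above all Il-17rc-Cre libraries, with Il-17ra-Cre replicate 3 close to Il-17rc-Cre replicate 2. The log2 fold change was 4.1 ± 0.77 and the adjusted p 0.0384 in edgeR.

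Cldn11 (chromosome 3, 31149920 to 31164324), the claudin of the tight junctions between myelin layers, was at 192, 157 and 55.7 CPM in Il-17ra-Cre and 4.24, 16.2, 3.98 and 15.2 CPM in Il-17rc-Cre, with a log2 fold change of 3.77 ± 0.6 and an adjusted p of 0.0313 in edgeR. In Cldn11, as in Mbp, Il-17ra-Cre replicates 1 and 2 were highest, replicate 3 next, and Il-17rc-Cre replicates 1 and 3 lowest. Of the 15 members, 12 had no overlap between the groups, against 7.92% of all tested genes. Cnp, a phosphodiesterase of non-compact myelin, passed with a log2 fold change of 2.71 ± 0.54 although Il-17ra-Cre replicate 3 (1021 CPM) was below Il-17rc-Cre replicate 2 (1045 CPM). Other members that passed were the myelin surface glycoproteins Mog (3.89) and Mag (3.79), Mobp (3.83), the cytoskeletal protein Ermn (4.04), Opalin (3.69), Mal (3.42) and the metabolic enzymes Aspa (3.69) and Fa2h (3.12), all as log2 fold changes.

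The 3 members that did not pass had log2 fold changes in the same range. Sox10, a transcription factor of the whole lineage, was at 729.7, 547 and 109 CPM in Il-17ra-Cre and 13.4, 108, 12.8 and 45.5 CPM in Il-17rc-Cre, with a log2 fold change of 3.36 ± 0.81 and an adjusted p of 0.0606 in edgeR. Ugt8a, which makes the galactolipid of myelin, and the connexin gene Gjc3 had log2 fold changes of 3.68 ± 0.84 and 3.39 ± 0.82 (edgeR adjusted p = 0.0532 and 0.0604). In both, Il-17ra-Cre replicate 3 was below Il-17rc-Cre replicate 2. All 15 markers passed without Il-17ra-Cre replicate 3, at a median of 4.18, and with it as the 1 Il-17ra-Cre library the median was 1.31. Leaving out 1 of the 7 libraries at a time put the median between 3.09 and 4.28. With replicate 3 as the 1 Il-17ra-Cre library the list no longer ranked highest, as class II antigen presentation genes had a median of 1.42. Under voom the class II genes were also above it, at 4.90 against 4.78.

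Further genes with large folds outside the list are known from the same cells. Apod (chromosome 16, 31296192 to 31314808), a secreted lipocalin of oligodendrocytes, was at 15086, 12899 and 2778 CPM in Il-17ra-Cre and 117, 1183, 115 and 675 CPM in Il-17rc-Cre (log2 fold change 4.29 ± 0.88, edgeR adjusted p = 0.0445). Hapln2 (chromosome 3, 88021750 to 88027583), a link protein of the matrix at nodes of Ranvier, was at 149.9, 125 and 16.3 CPM in Il-17ra-Cre and 3.79, 9.08, 3.43 and 2.62 CPM in Il-17rc-Cre (log2 fold change 4.36 ± 0.71, edgeR adjusted p = 0.0339). Replicate 2 was the highest Il-17rc-Cre library in both genes, and replicate 4 was the next in Apod but the lowest in Hapln2. Car14 (chromosome 3, 95897768 to 95904691), a membrane carbonic anhydrase, had a log2 fold change of 4.33 ± 0.66 and an adjusted p of 0.0284 in edgeR, with 17.5% of its exonic length shared with Aph1a. Ptgds passed at 3.97 ± 0.77 (edgeR adjusted p = 0.039), but its level in Il-17ra-Cre replicate 3 lay within the Il-17rc-Cre range. Its value without that library was 4.52 and with it alone 0.24.

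Markers of the precursors of these cells did not pass in edgeR with all libraries. Of 11 oligodendrocyte precursor markers 0 passed in edgeR, with 5 higher and 1 lower at an unadjusted p under 0.05. DESeq2 called 2 higher and 1 lower, voom 5 and 1. The median was 0.62, 0.32 without Il-17ra-Cre replicate 2, 0.98 without replicate 3, 0.39 or 0.35 without Il-17rc-Cre replicate 1 or 3, and -0.14 with Il-17ra-Cre replicate 3 as the 1 library of its group. Olig1, a transcription factor of the lineage, was at 1143, 995 and 501 CPM in Il-17ra-Cre and 479, 484, 543 and 590.2 CPM in Il-17rc-Cre. Olig2, its partner gene, was at 264, 204 and 82.4 CPM in Il-17ra-Cre and 96.4, 91.1, 107 and 98.8 CPM in Il-17rc-Cre. For both, Il-17ra-Cre replicates 1 and 2 were above and replicate 3 within or below the Il-17rc-Cre range. Without replicate 3 both passed as higher (edgeR adjusted p = 0.00726 and 0.00466), and 1 other member of the list passed as lower. Both genes belong to the whole lineage, so they do not stand for the precursors alone.

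**Figure D4:**
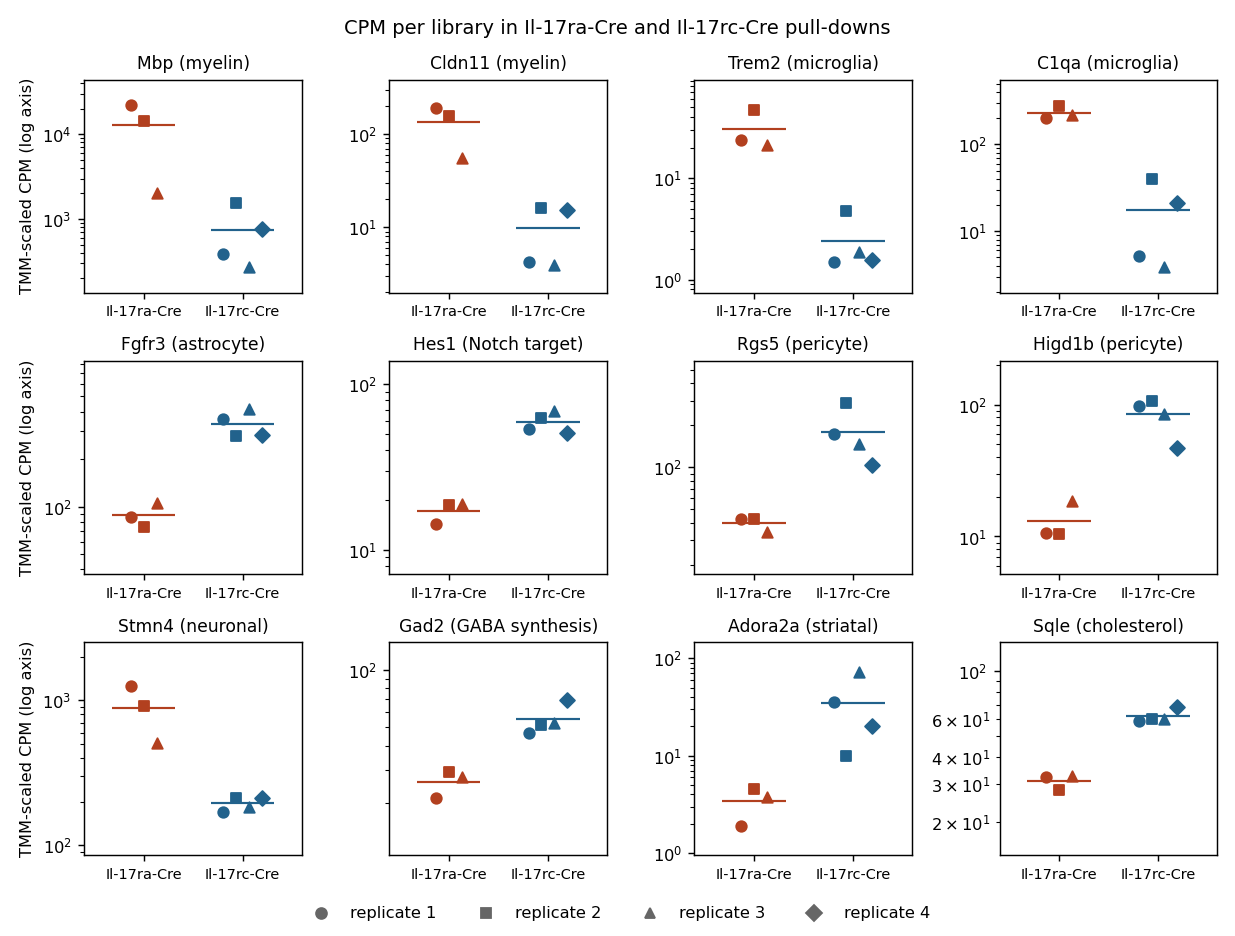
CPM per library on a log axis for 12 genes, with a symbol for each replicate and a line at each group's mean. Higd1b, Fgfr3, Hes1 and Sqle are lower in each Il-17ra-Cre library than in each Il-17rc-Cre library, and Il-17ra-Cre replicate 3 lies below replicates 1 and 2 for Mbp, Cldn11 and Stmn4 but near them for C1qa.

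Many microglial genes were also higher in Il-17ra-Cre. Of 16 microglia markers 8 passed as higher and 0 as lower, against 1.38% of all tested genes that passed as higher, at a median log2 fold change of 2.46. No overlap between the groups was found for 11, against 7.92% of all tested genes that were higher without overlap. C1qa (chromosome 4, 136895917 to 136898803), a chain of the complement component that tags synapses and debris, was at 199, 278 and 219 CPM in Il-17ra-Cre and 5.21, 40, 3.91 and 21.2 CPM in Il-17rc-Cre. Here the 3 Il-17ra-Cre libraries were alike, and the spread lay in Il-17rc-Cre, with replicates 2 and 4 above 1 and 3. The log2 fold change was 3.72 ± 0.7 and the adjusted p 0.0384 in edgeR, and leaving out 1 of the 7 libraries moved the edgeR adjusted p between 0.016 and 0.136.

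Trem2 (chromosome 17, 48346401 to 48354147), a lipid receptor of microglia, was at 23.7, 46.6 and 20.9 CPM in Il-17ra-Cre and 1.48, 4.76, 1.87 and 1.54 CPM in Il-17rc-Cre, with a log2 fold change of 3.65 ± 0.46 and an adjusted p of 0.0168 in edgeR. Its signalling partner Tyrobp had a log2 fold change of 3.59 ± 0.69, the protease Ctss one of 3.91 ± 0.83 and Aif1, the marker Iba1, one of 3.26 ± 0.56. C1qb and C1qc, the other chains of C1q, were at 3.65 ± 0.73 and 3.56 ± 0.65. Leaving out Il-17ra-Cre replicate 3 brought the number that passed to 10 and the median to 2.85, and with that library alone the median was 1.32.

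Surface proteins that define resting microglia did not pass in edgeR with all libraries. P2ry12, a receptor for adenosine diphosphate, was at 10.4, 11.5 and 3.43 CPM in Il-17ra-Cre and 3.93, 5.4, 4.9 and 5.11 CPM in Il-17rc-Cre, and Tmem119 at 8.28, 16.3 and 11 CPM in Il-17ra-Cre and 2.88, 7.6, 2.3 and 6.61 CPM in Il-17rc-Cre. The log2 fold changes were 0.8 ± 0.4 and 1.29 ± 0.94 (edgeR adjusted p = 0.326 and 0.53). Csf1r, the receptor for the growth factor of microglia, was at 26.1, 68.9 and 17.1 CPM in Il-17ra-Cre and 4.94, 16.3, 5.12 and 5.91 CPM in Il-17rc-Cre (log2 fold change 2.21 ± 0.78, edgeR adjusted p = 0.164), and Cx3cr1, the fractalkine receptor, at 10.8, 19.9 and 4.66 CPM in Il-17ra-Cre and 0.741, 4.68, 0.894 and 0.807 CPM in Il-17rc-Cre (log2 fold change 2.72 ± 0.76, edgeR adjusted p = 0.0897). All 4 had their highest value in Il-17ra-Cre replicate 2, and Tmem119 and Csf1r were higher without overlap. Other methods called Csf1r (DESeq2 adjusted p = 0.0423, voom 0.0052) and Cx3cr1 (DESeq2 adjusted p = 0.00601, voom 0.00136). P2ry12 was called by voom only (adjusted p = 0.0196) and Tmem119 by neither. Without Il-17ra-Cre replicate 3, P2ry12 and Cx3cr1 passed (edgeR adjusted p = 0.0282 and 0.0316). Whether these members differ from the 8 that passed was not tested.

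Other genes of myeloid cells had some of the largest folds. Lyz2 (chromosome 10, 117277331 to 117282321), lysozyme, was at 185, 529.8 and 70.4 CPM in Il-17ra-Cre and 3.27, 10.4, 0.854 and 10.9 CPM in Il-17rc-Cre, with a log2 fold change of 5.36 ± 0.97 and an adjusted p of 0.0383 in edgeR, and can share reads with the near-identical Lyz1. Hk3 (chromosome 13, 55005985 to 55021385), the hexokinase of white blood cells, was at 31.9, 72.7 and 15.1 CPM in Il-17ra-Cre and 0.432, 2.7, 0.36 and 2.41 CPM in Il-17rc-Cre, with a log2 fold change of 4.75 ± 0.97 and an adjusted p of 0.0444 in edgeR. Tnfsf13b (chromosome 8, 10006467 to 10039072), the B cell survival factor BAFF, had a log2 fold change of 3.79 ± 0.77 and an adjusted p of 0.0439 in edgeR. The Fc receptor gene Fcgr3, named after its values were seen, was at 3.62 ± 0.51. Of 20 genes of microglial activation 2 passed as higher, against 1.38% of all tested genes, and 0 as lower, at a median of 1.21. They were the lysosomal protein Cd68 (2.47 ± 0.38) and the Fc receptor chain Fcer1g (3.11 ± 0.67).

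Markers of other blood-derived cells were measured beside these. Of 13 markers of monocytes and neutrophils 6 were tested and 0 passed in edgeR (2 at an unadjusted p under 0.05, DESeq2 1, voom 4), with sums of 58.4 to 177 CPM in Il-17ra-Cre and 14.5 to 39.6 CPM in Il-17rc-Cre. S100a9 and Mmp8 had no count in either group. T and NK cell markers summed to 33.5 to 91 CPM in Il-17ra-Cre and 25 to 45.4 CPM in Il-17rc-Cre, with 0 of 14 passed in edgeR (3 higher and 1 lower at an unadjusted p under 0.05, DESeq2 0 and 1, voom 11 and 0). Border macrophage markers summed to 6.49 to 26.7 CPM in Il-17ra-Cre and 2.23 to 3.3 CPM in Il-17rc-Cre, with 0 of 5 tested members passed (1 at an unadjusted p under 0.05, DESeq2 0, voom 2). The part of such cells in the myeloid genes was not tested.

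Immunoglobulin genes were uneven between libraries. B and plasma cell markers summed to 1338, 2950.2 and 383 CPM in Il-17ra-Cre and 597, 666, 865 and 741 CPM in Il-17rc-Cre, and 0 of 8 tested members passed in edgeR (3 at an unadjusted p under 0.05, DESeq2 2, voom 5). Igkc, the kappa light chain, was at 89, 262 and 35 CPM in Il-17ra-Cre and 19.9, 28, 8.05 and 26.5 CPM in Il-17rc-Cre (log2 fold change 2.64 ± 0.68, edgeR adjusted p = 0.0737). Its highest value, like that of Igha, was in Il-17ra-Cre replicate 2. The log2 fold change of Igha was 2.93 ± 1.1 (edgeR adjusted p = 0.187) and -2.53 with Il-17ra-Cre replicate 3 as the 1 library of its group.

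Of the genes of antigen presentation 0 of the class I and class II genes passed in edgeR. Of 11 class II genes 9 were higher without overlap between the groups, against 7.92% of all tested genes. At an unadjusted p under 0.05 were 9, all higher, against 18.4% of all tested genes in either direction, and DESeq2 called 6 as higher and voom 10. The microglia markers were higher in the same libraries, and their part in these lists was not tested. The median log2 fold change was 3.09. H2-Ab1, a chain of the class II molecule that presents peptides to CD4 T cells, was at 1609, 1502 and 493 CPM in Il-17ra-Cre and 19.8, 301, 44.1 and 297 CPM in Il-17rc-Cre, with a log2 fold change of 2.86 ± 0.87 and an adjusted p of 0.111 in edgeR. H2-Aa, the other chain, had 2.8 ± 1.00 (edgeR adjusted p = 0.167). Ciita, the transcription factor that switches class II genes on, was at 68.3, 65.1 and 12.6 CPM in Il-17ra-Cre and 0.988, 9.45, 3.06 and 9.22 CPM in Il-17rc-Cre, with a log2 fold change of 3.09 ± 0.82 and an adjusted p of 0.0795 in edgeR. In all 3, Il-17rc-Cre replicates 2 and 4 lay above replicates 1 and 3. With replicates 1 and 3 of Il-17rc-Cre left out, the class II median was 2.20, and without Il-17ra-Cre replicate 3 it was 3.55 with 4 genes passed.

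Class I genes, which present peptides on nearly all cells, had a median of 1.12 over 18 members. In edgeR 0 passed, with 14 at an unadjusted p under 0.05, 6 called by DESeq2 and 18 by voom. Without overlap 6 were higher, against 7.92% of all tested genes. The median was 0.57 without Il-17rc-Cre replicates 1 and 3. B2m, the shared light chain, was at 14259, 8473 and 4947 CPM in Il-17ra-Cre and 1438, 5432, 2286 and 4196 CPM in Il-17rc-Cre, and H2-D1, a heavy chain, at 13883, 10674 and 3634 CPM in Il-17ra-Cre and 1225, 4150.1, 1764 and 3299 CPM in Il-17rc-Cre. For both, Il-17rc-Cre replicate 2 was above Il-17ra-Cre replicate 3. The log2 fold changes were 1.47 ± 0.46 and 1.85 ± 0.48 (edgeR adjusted p = 0.119 and 0.0736). H2 genes have near-identical copies, and reads can be split between them or lost.

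No gene of the interferon lists passed in edgeR. Of 29 interferon-stimulated genes 0 passed in edgeR, with 7 higher and 3 lower at an unadjusted p under 0.05, DESeq2 calling 0 and 1 and voom 10 and 2, at a median of 0.09 that lay between -0.27 without Il-17ra-Cre replicate 1 and 0.38 without Il-17ra-Cre replicate 3. Guanylate-binding proteins and immunity-related GTPases had a median of 0.79 over 16 members. It was 0.46 without Il-17ra-Cre replicate 1, 0.47 or 1.22 without Il-17rc-Cre replicate 1 or 4, 0.04 without Il-17rc-Cre replicates 1 and 3, and 0.08 with Il-17ra-Cre replicate 3 alone. Of these 0 passed in edgeR (2 at an unadjusted p under 0.05, DESeq2 0, voom 15) and 0 did not overlap. Gbp2 was at 3337, 2748 and 1909.5 CPM in Il-17ra-Cre and 292, 3076, 588 and 2823 CPM in Il-17rc-Cre, and Ubd, which encodes a ubiquitin-like modifier induced by interferon, at 317, 314 and 60.2 CPM in Il-17ra-Cre and 4.57, 189, 8.45 and 78.5 CPM in Il-17rc-Cre. In both genes the lowest libraries were Il-17rc-Cre replicates 1 and 3, while replicates 2 and 4 reached the range of Il-17ra-Cre. Il12rb1, a subunit of the receptors for IL-12 and IL-23, was at 717, 483 and 49.9 CPM in Il-17ra-Cre and 2.28, 62.1, 2.58 and 26.1 CPM in Il-17rc-Cre (log2 fold change 4.16 ± 1.17, edgeR adjusted p = 0.0912), which fell short of the threshold.

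Among 16 tested complement genes the 3 that passed were the C1q chains already named, against 1.38% of all tested genes that passed as higher. The complement median was 2.18 (1.43 without Il-17rc-Cre replicates 1 and 3 and 0.24 with Il-17ra-Cre replicate 3 alone). Genes of IL-17 signalling had a median near that of all genes. Of 22, 1 passed as higher, against 1.38% of all tested genes. It was Hsp90aa1, a chaperone for the adaptor Act1 among many other clients. The median was 0.12, between -0.08 and 0.26 leaving out 1 library, lowest without Il-17ra-Cre replicate 1 and highest without replicate 3. Traf3ip2, the gene of Act1 itself, was at 2.43, 2.81 and 5.74 CPM in Il-17ra-Cre and 5.45, 6.59, 5.62 and 8.19 CPM in Il-17rc-Cre (log2 fold change -0.81 ± 0.68, edgeR adjusted p = 0.597). Of 13 tested IL-17 target genes 0 passed in edgeR, with 2 higher and 3 lower at an unadjusted p under 0.05, DESeq2 calling 2 and 3 and voom 3 and 2, at a median of -0.39.

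Elavl3, Stmn4 and Mapt, genes known from neurons but outside the pan-neuronal list, were higher in Il-17ra-Cre. Most pan-neuronal markers did not pass, and their list had a median of -0.12. Elavl3 (ENSMUSG00000003410, chromosome 9, 22015005 to 22052023), a neuronal RNA-binding protein, was at 124, 126 and 96.7 CPM in Il-17ra-Cre and 38, 41.8, 41.3 and 35.5 CPM in Il-17rc-Cre. It had the smallest p of all genes, for which it is named here, with a log2 fold change of 1.56 ± 0.14 and an adjusted p of 0.0104 in edgeR. The 2 groups were well apart and each was tight. Without Il-17ra-Cre replicate 3 the log2 fold change was 1.67, and the edgeR adjusted p lay between 3.24e-04 and 0.0579 when 1 of the 7 libraries was left out.

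Stmn4 (chromosome 14, 66344296 to 66361680) and Mapt (chromosome 11, 104231390 to 104332090), which regulate microtubules and were named after their values were seen, were also higher. Stmn4 was at 1257, 910.3 and 505 CPM in Il-17ra-Cre and 171, 213, 183 and 213 CPM in Il-17rc-Cre, with a log2 fold change of 2.19 ± 0.26 and an adjusted p of 0.0154 in edgeR. Mapt, the gene of tau, was at 854, 789 and 339.8 CPM in Il-17ra-Cre and 209, 235, 187 and 166 CPM in Il-17rc-Cre, with a log2 fold change of 1.73 ± 0.28 and an adjusted p of 0.0313 in edgeR. Both genes had no overlap between groups, with Il-17ra-Cre replicate 3 lowest of its group.

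Of 13 pan-neuronal markers 1 passed as higher, against 1.38% of all tested genes, and 0 as lower, at a median of -0.12. The 1 that passed in edgeR was Tubb3, neuronal beta-tubulin. DESeq2 called 1 member of the list higher and 1 lower, and voom called 1 higher and 6 lower. Tubb3 was at 2914, 2316 and 454 CPM in Il-17ra-Cre and 216, 468, 228 and 316 CPM in Il-17rc-Cre, so the groups overlapped in Il-17ra-Cre replicate 3 (log2 fold change 2.63 ± 0.51, edgeR adjusted p = 0.0398). Snap25, of the synaptic release machinery, was at 1142, 1692 and 3348 CPM in Il-17ra-Cre and 2413, 2047, 2455 and 1969 CPM in Il-17rc-Cre, with a log2 fold change of -0.11 ± 0.3 and an adjusted p of 0.904 in edgeR. The list depended on Il-17ra-Cre replicate 3: without it 1 member passed as higher and 6 as lower at a median of -0.61, and with it alone the median was 0.47. The summed level of the pan-neuronal list was 5615 to 7566 CPM in Il-17ra-Cre and 4785 to 5689 CPM in Il-17rc-Cre, and that of oligodendrocyte markers 5704 to 47489 CPM in Il-17ra-Cre and 1103 to 4272 CPM in Il-17rc-Cre. Their part in the values of Stmn4, Mapt and Tubb3 was not tested.

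Excitatory neuron markers showed the same dependence. Of 13, 0 passed in edgeR (0 higher and 1 lower at an unadjusted p under 0.05, DESeq2 0 and 0, voom 0 and 4) at a median of -0.02. Slc17a7, which loads glutamate into synaptic vesicles in cortex, was at 167, 236 and 623 CPM in Il-17ra-Cre and 427, 414, 407 and 327 CPM in Il-17rc-Cre. Nrgn, a calmodulin-binding protein of their dendrites, was at 1160.2, 1250.2 and 5504 CPM in Il-17ra-Cre and 2525, 1384, 2861 and 1710.2 CPM in Il-17rc-Cre. In both genes Il-17ra-Cre replicates 1 and 2 were below all Il-17rc-Cre libraries and replicate 3 was above them. Without that library 5 of the 13 passed as lower, at a median of -0.82, and with it alone the median was 0.59.

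Ion channels passed singly. Kcna1 (chromosome 6, 126640397 to 126646384), the potassium channel Kv1.1 of axons beside the nodes of Ranvier, was at 115, 108 and 55.5 CPM in Il-17ra-Cre and 27.2, 44.4, 29.9 and 28.7 CPM in Il-17rc-Cre, with a log2 fold change of 1.51 ± 0.26 and an adjusted p of 0.0375 in edgeR. Kcna6, of the same family, had 1.19 ± 0.15 (edgeR adjusted p = 0.0174), with 39.6% of its exonic length shared with Gm26673. Hcn2 (chromosome 10, 79716634 to 79736108), a pacemaker channel opened by hyperpolarization, was at 162, 177 and 56.3 CPM in Il-17ra-Cre and 37.6, 50.6, 40.3 and 27.4 CPM in Il-17rc-Cre, with a log2 fold change of 1.76 ± 0.35 and an adjusted p of 0.0426 in edgeR. None of the 3 overlapped between groups. They were the only calls among 33 potassium channel genes (2 higher, 0 lower, median -0.14) and 26 sodium, calcium and HCN channel genes (1 higher, 0 lower, median -0.05) in edgeR. Over all tested genes the shares were 1.38% higher and 0.798% lower. Without Il-17ra-Cre replicate 3 the calls in the 2 lists were 2 higher and 8 lower, and 1 higher and 5 lower, at medians of -0.41 and -0.47.

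Some chaperones of the cytosol and the endoplasmic reticulum were higher in Il-17ra-Cre. Of 20 genes of the heat shock and unfolded protein responses 4 passed as higher, against 1.38% of all tested genes, and 0 as lower, 9 were higher without overlap, against 7.92%, and the median was 0.63 (0.41 without Il-17rc-Cre replicates 1 and 3). Sdf2l1 (chromosome 16, 17130138 to 17132383), an endoplasmic reticulum protein that works with the chaperone BiP, was at 106, 77.8 and 50.1 CPM in Il-17ra-Cre and 13.9, 30.3, 16.4 and 27.7 CPM in Il-17rc-Cre, with a log2 fold change of 1.82 ± 0.32 and an adjusted p of 0.0375 in edgeR. Creld2, a stress-induced protein of the same compartment, had 1.5 ± 0.29 (edgeR adjusted p = 0.0389). Hsp90ab1 and Hsp90aa1, the cytosolic Hsp90 proteins, had the smaller values of 0.84 ± 0.16 and 0.72 ± 0.14 (edgeR adjusted p = 0.0384 and 0.039), and their reads can be shared with related copies. Hsp90aa1 was at 1225, 1219.5 and 1167 CPM in Il-17ra-Cre and 659, 804, 649.9 and 804 CPM in Il-17rc-Cre, with each group tight. Of the 20, 9 passed without Il-17ra-Cre replicate 3. The oligodendrocyte and microglia markers were higher in the same libraries, and their part in this list was not tested.

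Some astrocyte genes were lower in Il-17ra-Cre. Of 16 astrocyte markers 2 passed as lower, against 0.798% of all tested genes, and 0 as higher, 13 were lower without overlap, against 6.65% of all tested genes, and the median was -0.91. Fgfr3 (ENSMUSG00000054252, chromosome 5, 33721674 to 33737068), a fibroblast growth factor receptor of astrocytes, was at 85.9, 74.9 and 105 CPM in Il-17ra-Cre and 359, 281, 419 and 285 CPM in Il-17rc-Cre. The libraries of the 2 groups were far apart, with a log2 fold change of -1.92 ± 0.23 and an adjusted p of 0.0154 in edgeR. The unnamed gene G630022F23Rik covers 13.9% of its exons.

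Atp1b2 (chromosome 11, 69599736 to 69605942), the glial sodium pump subunit, was at 348, 342 and 247 CPM in Il-17ra-Cre and 591, 511, 799 and 587 CPM in Il-17rc-Cre, with a log2 fold change of -0.99 ± 0.21 and an adjusted p of 0.0451 in edgeR. Members short of the threshold were Aldh1l1, a folate enzyme used as a pan-astrocyte marker, at -0.93 ± 0.21 (edgeR adjusted p = 0.0522), and Sox9, their transcription factor, at -0.75 ± 0.21 (edgeR adjusted p = 0.0872). The glutamate transporters Slc1a2 and Slc1a3 were at -0.76 ± 0.21 and -0.67 ± 0.34 and the endfoot water channel Aqp4 at -0.69 ± 0.29 (edgeR adjusted p = 0.0885, 0.333 and 0.231). Each of these 5 was lower without overlap. Gfap, the intermediate filament that rises in reactive astrocytes, was at 8068, 7454 and 4848 CPM in Il-17ra-Cre and 5757, 6488, 6404 and 7748 CPM in Il-17rc-Cre and overlapped, with a log2 fold change of 0.04 ± 0.19 and an adjusted p of 0.946 in edgeR, and its sign turned under other scalings. The summed level of the list was 15408, 14752 and 8031 CPM in Il-17ra-Cre and 20669.8, 13743, 21569 and 15930.3 CPM in Il-17rc-Cre. Il-17ra-Cre replicate 3 had the lowest sum, the sums of replicates 1 and 2 lay within the Il-17rc-Cre range, and without replicate 3 5 members passed at a median of -0.64.

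S1pr1, Ednrb and Tlcd1 are outside the list and were named after their values were seen, so they add no support to it. S1pr1 (chromosome 3, 115710433 to 115715072), the sphingosine-1-phosphate receptor, was at 149, 132 and 158 CPM in Il-17ra-Cre and 587, 359.7, 687 and 490.2 CPM in Il-17rc-Cre, with a log2 fold change of -1.86 ± 0.23 and an adjusted p of 0.0155 in edgeR. Ednrb (chromosome 14, 103814625 to 103844402), the endothelin receptor B, was at 92.3, 79.6 and 90.9 CPM in Il-17ra-Cre and 183, 192, 239 and 255 CPM in Il-17rc-Cre, with a log2 fold change of -1.31 ± 0.16 and an adjusted p of 0.0154 in edgeR. In both genes the 3 Il-17ra-Cre libraries were alike, replicate 3 included. Tlcd1 (chromosome 11, 78176711 to 78181909), a membrane protein, was at 10.8, 10.3 and 9.06 CPM in Il-17ra-Cre and 94, 31.3, 108 and 39.9 CPM in Il-17rc-Cre, with a log2 fold change of -2.76 ± 0.42 and an adjusted p of 0.0284 in edgeR, with 14% of its exonic length shared with other genes.

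Reactive astrocyte genes rarely passed. Of 22, 1 passed as higher, against 1.38% of all tested genes, and 0 as lower, at a median of -0.47. The median was -0.24 or -0.28 without Il-17ra-Cre replicate 1 or 2, -0.06 or -0.20 without Il-17rc-Cre replicate 2 or 4, and -0.97 without Il-17rc-Cre replicates 1 and 3. The member that passed was Serpina3n (chromosome 12, 104406729 to 104414329), a secreted protease inhibitor that oligodendrocytes also make, at 1705, 1611 and 462 CPM in Il-17ra-Cre and 95.3, 249, 131 and 268 CPM in Il-17rc-Cre, with a log2 fold change of 2.76 ± 0.48 and an adjusted p of 0.0375 in edgeR.

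Notch, Wnt and Hedgehog are pathways by which neighbouring cells signal to each other. Of the 34 Notch, Wnt and Hedgehog genes 5 passed as lower, against 0.798% of all tested genes, and 0 as higher. Those that passed were the Notch receptor Notch3, the Notch targets Hes1 and Hey2, and Wnt7b and Fzd1 of the Wnt pathway. Without overlap 11 were lower and 3 higher, against 6.65% and 7.92% of all tested genes. The median was -0.60. The number lower was 8 without Il-17ra-Cre replicate 3, and with it alone the median was -0.95. Mural cell and astrocyte markers had medians of -1.93 and -0.91 in the same libraries, with 4 and 2 members passed as lower, and their part in this list was not tested.

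Hes1 (ENSMUSG00000022528, chromosome 16, 30064384 to 30067796), the classic transcriptional target of Notch, was at 14.3, 18.5 and 18.8 CPM in Il-17ra-Cre and 53.6, 62.5, 68.7 and 50.8 CPM in Il-17rc-Cre. The groups were far apart and Il-17ra-Cre replicate 3 was level with replicate 2, with a log2 fold change of -1.77 ± 0.17 and an adjusted p of 0.0131 in edgeR. Heyl (chromosome 4, 123233556 to 123249875), a Notch target outside the list, was at 6.25, 6.9 and 8.17 CPM in Il-17ra-Cre and 56.3, 75, 42.4 and 30.4 CPM in Il-17rc-Cre, with a log2 fold change of -2.84 ± 0.54 and an adjusted p of 0.0384 in edgeR. Hey2 (chromosome 10, 30832359 to 30842801) had -1.28 ± 0.27 (edgeR adjusted p = 0.0452). Nrarp, a target that feeds back on Notch, also outside the list and named after its values were seen, had -3.08 ± 0.47, but 79.4% of its exonic length is shared with Gm38287. Hes5 was at 2.72, 3.13 and 4.53 CPM in Il-17ra-Cre and 15.4, 4.79, 13.6 and 1.12 CPM in Il-17rc-Cre and did not pass (log2 fold change -1.33 ± 0.69, edgeR adjusted p = 0.35).

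Notch3 (chromosome 17, 32120820 to 32166852), the receptor of mural cells, was at 4.96, 2.92 and 2.67 CPM in Il-17ra-Cre and 18.4, 16.2, 24.1 and 7.96 CPM in Il-17rc-Cre, with a log2 fold change of -2.25 ± 0.42 and an adjusted p of 0.0384 in edgeR. Wnt7b (chromosome 15, 85535437 to 85582473), a secreted Wnt ligand, was at 20.8, 28.3 and 38.9 CPM in Il-17ra-Cre and 165, 58.9, 162 and 95.3 CPM in Il-17rc-Cre, with a log2 fold change of -2.04 ± 0.4 and an adjusted p of 0.0399 in edgeR. Fzd1 (chromosome 5, 4753839 to 4758035), a Wnt receptor, was at 4.26, 7.27 and 6.44 CPM in Il-17ra-Cre and 19.4, 18.3, 20 and 19.2 CPM in Il-17rc-Cre, with a log2 fold change of -1.68 ± 0.29 and an adjusted p of 0.0375 in edgeR. None of these overlapped between groups, and Fzd1 was nearly level across the 4 Il-17rc-Cre libraries. Lgr6, a receptor for R-spondins that raise Wnt signalling, is outside the list and had -2.3 ± 0.45 (edgeR adjusted p = 0.039).

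The promoter of Hey2 is shown because Hey2 is a Notch target of the list that passed and has an entry in the reference. It is the 250 bases before the start site (RefSeq, GRCm38.p6, chr10:30842784-30843033, minus strand), with the core letters bound by RBPJ, the DNA-binding partner of Notch, in capitals. The letters TGGGAA were searched on both strands.
Hey2: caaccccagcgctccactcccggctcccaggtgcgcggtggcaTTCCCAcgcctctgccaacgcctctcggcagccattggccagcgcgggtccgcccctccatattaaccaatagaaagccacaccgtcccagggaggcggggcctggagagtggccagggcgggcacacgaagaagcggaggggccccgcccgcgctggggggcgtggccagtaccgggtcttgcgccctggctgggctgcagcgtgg
These letters stood in 1 place in this window and in 21.6% of all 32851 promoters of the same length, so the match is a description of the sequence only.

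Some genes of mural cells, the pericytes and smooth muscle of small vessels, were lower in Il-17ra-Cre. Of 13 markers 4 passed as lower, against 0.798% of all tested genes, and 0 as higher, 8 were lower without overlap, against 6.65%, and the median was -1.93. Higd1b (chromosome 11, 102835849 to 102838040), a mitochondrial protein of pericytes, was at 10.7, 10.4 and 18.5 CPM in Il-17ra-Cre and 98.6, 107, 85.8 and 46.9 CPM in Il-17rc-Cre, with a log2 fold change of -2.68 ± 0.33 and an adjusted p of 0.0154 in edgeR. Rgs5 (chromosome 1, 169655501 to 169695813), a regulator of G protein signalling in pericytes, was at 42.7, 42.6 and 34.2 CPM in Il-17ra-Cre and 173, 289, 147 and 104 CPM in Il-17rc-Cre, with a log2 fold change of -2.16 ± 0.37 and an adjusted p of 0.0373 in edgeR. Il-17ra-Cre replicate 3 was the highest of its group for Higd1b and the lowest for Rgs5, and the lowest Il-17rc-Cre library was replicate 4 in both genes.

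Vtn, vitronectin, which brain pericytes secrete, was at 69.5, 54.9 and 124 CPM in Il-17ra-Cre and 232, 595, 311 and 287 CPM in Il-17rc-Cre, with a log2 fold change of -2.11 ± 0.38 and an adjusted p of 0.0384 in edgeR. The fourth member that passed was Notch3, which the Notch list also holds. Pdgfrb, the receptor that recruits pericytes to vessels, was at 9.54, 8.12 and 8.57 CPM in Il-17ra-Cre and 25.3, 47.9, 30.1 and 29.8 CPM in Il-17rc-Cre without overlap, but did not pass (log2 fold change -1.93 ± 0.57, edgeR adjusted p = 0.101). The summed level of the list was 237, 232 and 243 CPM in Il-17ra-Cre and 645, 1304, 702 and 587 CPM in Il-17rc-Cre. When Il-17ra-Cre replicate 3 was left out the median was -1.91 with 5 passed, and with that library alone it was -2.03, so this difference was about the same size with either kind of library.

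Further vascular genes with large folds were Ndufa4l2 (-2.49 ± 0.4, edgeR adjusted p = 0.0313), a mitochondrial protein abundant in pericytes, and Foxc1 (-2.26 ± 0.46, edgeR adjusted p = 0.0426), a transcription factor of mural cells and meninges. Tmem204 (-2.86 ± 0.51, edgeR adjusted p = 0.0375), a junction protein of vessels, was at 2.88, 1.78 and 2.61 CPM in Il-17ra-Cre and 20.4, 22.1, 23 and 5.06 CPM in Il-17rc-Cre. Slc6a20a, a proline transporter, was at 0.809, 1.49 and 1.1 CPM in Il-17ra-Cre and 9.26, 10.6, 10.7 and 6.34 CPM in Il-17rc-Cre (log2 fold change -3.03 ± 0.67, edgeR adjusted p = 0.0493), with 14.3% of its exonic length shared with other genes. In both, Il-17rc-Cre replicate 4 was the lowest of its group and still above every Il-17ra-Cre library. Of 13 endothelial markers 0 passed in edgeR (1 higher and 3 lower at an unadjusted p under 0.05, DESeq2 0 and 3, voom 1 and 2), at a median of -0.74. That median was -0.23 without Il-17ra-Cre replicate 3 and -2.28 with it alone, -0.36 without Il-17rc-Cre replicate 2 and -1.15 without Il-17rc-Cre replicates 1 and 3. Cldn5, the claudin of the blood-brain barrier, was at 11.8, 20 and 5.5 CPM in Il-17ra-Cre and 19.8, 52.3, 17.9 and 11.5 CPM in Il-17rc-Cre.

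Some genes of inhibitory neurons were lower in Il-17ra-Cre. Of 12 markers 3 passed as lower, against 0.798% of all tested genes, and 0 as higher, 7 were lower without overlap, against 6.65%, and the median was -1.17. Gad2 (chromosome 2, 22622205 to 22693874), one of the enzymes that make the transmitter GABA, was at 21.3, 29.2 and 27.3 CPM in Il-17ra-Cre and 46.6, 51.6, 52.4 and 69.6 CPM in Il-17rc-Cre, with a log2 fold change of -1.09 ± 0.19 and an adjusted p of 0.0375 in edgeR. Its groups did not overlap, and all 4 Il-17rc-Cre libraries were well above the highest Il-17ra-Cre library.

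Gad1, the other GABA-making enzyme, was at 92.1, 175 and 76.8 CPM in Il-17ra-Cre and 155, 267, 173 and 188 CPM in Il-17rc-Cre and overlapped (log2 fold change -0.77 ± 0.31, edgeR adjusted p = 0.216). Among 16 genes of interneuron classes 0 passed in edgeR (0 higher and 5 lower at an unadjusted p under 0.05, DESeq2 0 and 4, voom 0 and 3), at a median of -0.58, or -0.96 without Il-17ra-Cre replicate 2. Sst, somatostatin, was at 37.1, 61.2 and 97.5 CPM in Il-17ra-Cre and 149, 147, 199 and 124 CPM in Il-17rc-Cre, and Pvalb, parvalbumin, at 17.9, 32.6 and 62.5 CPM in Il-17ra-Cre and 90.4, 87, 90.7 and 80 CPM in Il-17rc-Cre, both lower without overlap and short of the threshold (edgeR adjusted p = 0.0582 and 0.0918). Without Il-17ra-Cre replicate 3 the inhibitory list had 1 member passed as higher and 4 as lower at a median of -1.10. Striatal projection neuron markers had a median of -2.08 in the same libraries, and their part in this list was not tested.

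Genes of striatal projection neurons had the lowest median of the 50 gene lists, -2.08 over 11 markers, although the labelled tissue is cortex. This rank did not hold in every fit. Mural cell markers had a lower median without Il-17ra-Cre replicate 1 (-2.06 against -1.98). The same held without Il-17rc-Cre replicate 1 (-2.040 against -2.039), replicate 3 (-1.97 against -1.51) or both (-1.82 against -1.03). With Il-17ra-Cre replicate 3 as the 1 library of its group, endothelial (-2.28) and mural cell markers (-2.03) lay below the striatal ones (-1.50). Of the 11 striatal markers 2 passed as lower, against 0.798% of all tested genes, and 0 as higher. Without overlap 3 were lower, against 6.65% of all tested genes. Adora2a (chromosome 10, 75316877 to 75334784), an adenosine receptor of striatal neurons, was at 1.89, 4.54 and 3.79 CPM in Il-17ra-Cre and 35.5, 9.93, 73.1 and 20.2 CPM in Il-17rc-Cre, with a log2 fold change of -3.34 ± 0.65 and an adjusted p of 0.039 in edgeR. The groups did not overlap, but the Il-17rc-Cre libraries were very uneven, with replicate 3 highest and replicate 2 lowest.

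Further striatal markers overlapped through the same libraries. Drd2, the dopamine D2 receptor, was at 0.108, 0.106 and 2.28 CPM in Il-17ra-Cre and 9.3, 0.484, 27.5 and 6.32 CPM in Il-17rc-Cre, and Drd1, the D1 receptor, at 1.59, 1.94 and 15.3 CPM in Il-17ra-Cre and 17.4, 4.77, 29.2 and 16.1 CPM in Il-17rc-Cre. Ppp1r1b, the phosphatase regulator DARPP-32, was at 35.9, 43.1 and 219.8 CPM in Il-17ra-Cre and 458, 80.8, 835 and 312 CPM in Il-17rc-Cre, and Penk, the enkephalin precursor, at 22.8, 18.1 and 207 CPM in Il-17ra-Cre and 194, 31.1, 486 and 209.7 CPM in Il-17rc-Cre. In all 4 Il-17rc-Cre replicate 3 was highest and replicate 2 lowest of that group, and Il-17ra-Cre replicate 3 was above replicates 1 and 2. The summed level of the list was 154, 186 and 698 CPM in Il-17ra-Cre and 1167, 299, 2235 and 947 CPM in Il-17rc-Cre. Its median was -3.26 with 9 passed without Il-17ra-Cre replicate 3, and -1.03 without Il-17rc-Cre replicates 1 and 3. The share of striatal tissue in each sample was not tested.

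Rasgrp2 (chromosome 19, 6399340 to 6415216), an activator of the small GTPase Rap that is enriched in striatum, was at 3.59, 6 and 6.23 CPM in Il-17ra-Cre and 38.1, 23.3, 58.7 and 21.7 CPM in Il-17rc-Cre, with a log2 fold change of -2.75 ± 0.38 and an adjusted p of 0.0227 in edgeR. Pcp4l1 (chromosome 1, 171173262 to 171196268), a small calmodulin-binding protein, was at 22, 36.2 and 52.8 CPM in Il-17ra-Cre and 207, 95.5, 315 and 156 CPM in Il-17rc-Cre, with a log2 fold change of -2.38 ± 0.41 and an adjusted p of 0.0375 in edgeR. Car8 (chromosome 4, 8143362 to 8239041), a carbonic anhydrase relative that binds the inositol trisphosphate receptor, was at 17.7, 25.4 and 35.6 CPM in Il-17ra-Cre and 174, 59, 158 and 66 CPM in Il-17rc-Cre, with a log2 fold change of -2.12 ± 0.42 and an adjusted p of 0.0411 in edgeR. In all 3, Il-17rc-Cre replicates 1 and 3 were above replicates 2 and 4, and no Il-17ra-Cre library reached them.

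Some genes of cholesterol synthesis were lower in Il-17ra-Cre. Of 21 genes 5 passed as lower, against 0.798% of all tested genes, and 0 as higher, at a median of -0.70. Without overlap 13 were lower and 1 higher, against 6.65% and 7.92% of all tested genes. Sqle (ENSMUSG00000022351, chromosome 15, 59315077 to 59331192), squalene epoxidase, a rate-limiting enzyme of the later steps, was at 32.4, 28 and 32.6 CPM in Il-17ra-Cre and 58.8, 60, 60.2 and 68 CPM in Il-17rc-Cre. The Il-17ra-Cre libraries were alike, replicate 3 included, and the log2 fold change was -0.99 ± 0.15 (edgeR adjusted p = 0.0284). Mvd (chromosome 8, 122433601 to 122443422), mevalonate diphosphate decarboxylase, was at 28.3, 23.7 and 38.7 CPM in Il-17ra-Cre and 81.3, 58.9, 58.4 and 63.8 CPM in Il-17rc-Cre, with a log2 fold change of -1.12 ± 0.19 and an adjusted p of 0.0375 in edgeR.

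Fdft1 (chromosome 14, 63145150 to 63179578), which makes squalene, was at 88.3, 70.8 and 99.9 CPM in Il-17ra-Cre and 176, 159, 160.3 and 199 CPM in Il-17rc-Cre, with a log2 fold change of -1.01 ± 0.16 and an adjusted p of 0.0284 in edgeR, with 18.3% of its exonic length shared with Ctsb. Nsdhl (chromosome X, 72918557 to 72958514), a dehydrogenase of the last steps, had -0.66 ± 0.14, and Srebf2 (chromosome 15, 82147181 to 82205379), the transcription factor that drives the pathway, -0.74 ± 0.16 (edgeR adjusted p = 0.047 and 0.0495). Hmgcs1, a synthase of the first steps, was at 136, 104 and 94.4 CPM in Il-17ra-Cre and 166, 157, 145 and 215 CPM in Il-17rc-Cre. It was lower without overlap and short of the threshold (log2 fold change -0.61 ± 0.18, edgeR adjusted p = 0.101). Msmo1, a sterol demethylase, had the lowest log2 fold change of the list, -1.63 ± 0.37 (edgeR adjusted p = 0.0539). Ebp, a sterol isomerase, went the other way at 47.1, 35.3 and 33.7 CPM in Il-17ra-Cre and 16.2, 26.1, 22.3 and 24.1 CPM in Il-17rc-Cre (log2 fold change 0.8 ± 0.2, edgeR adjusted p = 0.0614). Without Il-17ra-Cre replicate 3, 9 passed as lower and 1 as higher at a median of -0.64, and with it alone the median was -0.83. Oligodendrocyte and astrocyte markers, which mark cells that make much cholesterol, differed in opposite directions in these libraries, and their part was not tested.

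The promoters of 4 members are shown because genes of this pathway passed in 1 direction and are known to carry a CCAAT box, the site of the factor NF-Y. Mvd, Nsdhl and Srebf2 passed the test, and Hmgcs1 is the member with a sterol regulatory element. Each is the 250 bases before the start site (RefSeq, GRCm38.p6), with the letters CCAAT, searched on both strands, in capitals. They lie at chr8:122443423-122443672 (minus strand, Mvd), chrX:72918271-72918520 (plus, Nsdhl), chr15:82147019-82147268 (plus, Srebf2) and chr13:119690101-119690350 (plus, Hmgcs1).
Mvd: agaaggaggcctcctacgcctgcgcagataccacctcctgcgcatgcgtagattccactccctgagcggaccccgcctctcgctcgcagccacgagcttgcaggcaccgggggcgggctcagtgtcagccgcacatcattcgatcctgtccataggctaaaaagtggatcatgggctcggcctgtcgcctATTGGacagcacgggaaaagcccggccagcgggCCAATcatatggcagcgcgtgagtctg
Nsdhl: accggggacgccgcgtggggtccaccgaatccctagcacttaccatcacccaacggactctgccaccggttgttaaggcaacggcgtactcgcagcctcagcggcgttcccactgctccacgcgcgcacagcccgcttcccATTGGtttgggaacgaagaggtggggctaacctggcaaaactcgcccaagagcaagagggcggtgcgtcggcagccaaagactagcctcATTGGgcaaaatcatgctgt
Srebf2: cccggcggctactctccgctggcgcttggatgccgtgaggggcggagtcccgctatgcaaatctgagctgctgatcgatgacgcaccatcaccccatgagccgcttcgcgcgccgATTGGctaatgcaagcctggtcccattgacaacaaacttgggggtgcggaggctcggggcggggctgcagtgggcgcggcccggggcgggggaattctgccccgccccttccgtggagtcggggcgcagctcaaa
Hmgcs1: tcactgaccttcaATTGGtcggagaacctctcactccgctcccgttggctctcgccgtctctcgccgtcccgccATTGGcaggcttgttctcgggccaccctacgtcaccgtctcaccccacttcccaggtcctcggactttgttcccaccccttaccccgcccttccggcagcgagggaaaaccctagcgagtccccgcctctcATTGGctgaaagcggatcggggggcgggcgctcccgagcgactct

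These letters stood in 2 places in Mvd and Nsdhl, in 1 in Srebf2 and in 3 in Hmgcs1. Of 21 cholesterol genes 15 had a promoter in the reference, and all 15 held CCAAT on 1 strand or the other, against 37.5% of 27025 genes and 33.8% of 32851 promoters. Ebp, whose value went the other way, held it too, so the letters are shared by members that differ in direction. The core of the sterol regulatory element, TCACNCCAC, was found in 1 of the 15, Hmgcs1, and in 1.05% of all promoters. It did not overlap a CCAAT there. These are matches of letters in a fixed window, with no measurement of binding.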

How the data were processed

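TRAP libraries were made with the SMART-Seq v4 kit, which does not mark strand, per the labels' protocols, so reads of overlapping or antisense genes cannot be told apart. The authors deposited 1 table of read counts per gene for 55536 Ensembl identifiers in all 10 libraries. Alignment used STAR 2.7.5c and GRCm38, per the submitters' processing notes, while the counting method, its strand setting and the annotation were not given in the sources used. Symbols and coordinates came from GENCODE M21 (GRCm38) for 55450 identifiers, and the 86 without one held at most 0.0191% of a library's counts.

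Counts were fitted in edgeR 4.0.16 (R 4.3.3) over all 10 libraries, 3 Il-17ra-Cre, 3 Il-17rb-Cre and 4 Il-17rc-Cre, which share 1 estimate of the spread. TMM scaling was used with edgeR's default filter on low counts by group, with the IL-17 receptor genes kept, which removed 35235 identifiers and left 20301. The quasi-likelihood test of Il-17ra-Cre minus Il-17rc-Cre was adjusted by Benjamini-Hochberg over all tested genes, with a threshold of 0.05. The standard error is the log2 fold change divided by the root of F. Total counts ran from 39692925 to 165844244 in the 7 libraries compared, and 21205 to 24790 genes had a count in the 10. The biological coefficient of variation was 0.489. The procedure was tested on simulated data in which every group had the same spread. Such data do not hold libraries as uneven as those seen here, so that test does not bear on them.

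Alternatives were DESeq2 1.42.0, limma 3.58.1 voom with quality weights, other scalings and filters, replicate blocks, the 7 libraries alone and leaving out libraries. The fit of the 7 libraries without Il-17ra-Cre replicate 3 was chosen after seeing the data.

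Genes were named by a rule: up to 15 genes each way, those of largest fold that passed at an average log2 CPM of at least 2, without predicted or unnamed genes, the IL-17 family and Rpl10a, and up to 3 members per gene list. The comparison, the gene lists and their members were chosen with earlier results of these data known. Some genes that the rule names are not reported here. List members named beyond that rule were chosen after their values were seen. Promoters are the 250 bases before the start in RefSeq (GRCm38.p6).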

Additional observations from a re-analysis of the deposited data

Results flagged for a closer look

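In the 4 Il-17rc-Cre libraries, 1 library stood apart from the other 3 for 6 of the 121 genes and 5 of the 50 list sums examined, by Dixon's test at its 95% critical value. Chance alone gives such a library in about 1 of 20 groups, which is about the share seen for the genes. Some of the genes are members of the lists, so the items examined are not independent. Replicate 2 was high for the microglial genes Trem2 (4.76 CPM), Cx3cr1 (4.68 CPM) and Csf1r (16.3 CPM), for the potassium channel gene Kcna1 (44.4 CPM), and for the summed endothelial (380.2 CPM) and mural cell (1304 CPM) markers. Replicate 4 was low for the vascular gene Tmem204 (5.06 CPM). It was high for the cholesterol enzyme Sqle (68.0 CPM), the summed cholesterol synthesis genes (1554 CPM) and the summed immediate early genes (3769.7 CPM). Replicate 1 had the lowest sum of complement genes (2203 CPM). Groups of 3 libraries are too small for the test, so Il-17ra-Cre was not examined in this way.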

How the results depend on the processing

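Against 443 differing genes (281 higher, 162 lower), DESeq2 called 2087 (972 and 1115), limma voom 4579 (2716 and 1863) and a filter at 1 CPM in 3 libraries 691 (395 and 296). Upper quartile scaling gave 474 (284 and 190), no filter 425 (251 and 174) and DESeq2 size factors 442 (216 and 226). Of the 443, DESeq2 and voom each called 442 as well. All 443 had the same sign in every fit that tested them, which for the 1 CPM filter was 434. These genes were chosen on the same counts, and in 424 of them the groups did not overlap. Their shared sign was therefore largely given in advance and adds no support. The 7 libraries alone gave 1 gene (0 and 1), and without Il-17ra-Cre replicate 3 they gave 1908 (1198 and 710), 395 of them among the 443. The replicate block by title number gave 2 genes (0 and 2) and the block by library number 1 (0 and 1). The labels do not say that equal numbers mark paired samples, so the numbers were not taken as pairs. The same-numbered libraries' deviations correlated at -0.18, 0.27 and 0.28 by title and at -0.18, 0.27 and -0.04 by library number. Libraries of different title numbers correlated between -0.31 and 0.23, below 0.27 and 0.28 but above -0.18 in part. These values do not decide whether the titles pair samples. Leaving out 1 library gave 0 to 2886 genes, 0 to 1541 higher and 0 to 1345 lower, and a lone pair left in a group was assumed to vary like the others. Leaving out both Il-17ra-Cre replicates 1 and 2, or both Il-17rc-Cre replicates 1 and 3, gave 0 genes (0 higher and 0 lower), with 3121 and 2244 at an unadjusted p under 0.05. The causes were not tested.

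The log2 fold changes that turned sign were of genes that had not passed. Il17ra turned under voom (0.086), the replicate block by title number (0.057) or library number (0.036) and the 7 libraries without Il-17ra-Cre replicate 3 (0.038), and lay between -0.18 and 0.060 leaving out 1 library. Il17rc turned with DESeq2 (-0.019), its size factors (-0.019), no filter (-0.00659), without Il-17rc-Cre replicates 1 and 3 (-0.26) and in the 7 libraries without Il-17ra-Cre replicate 3 (-0.25), and lay between -0.27 and 0.27 leaving out 1. Rpl10a turned under voom (-1.71), the replicate blocks (-0.53 and -0.46) and the 7 libraries without Il-17ra-Cre replicate 3 (-1.86), with a range of -1.88 to 0.58. Gfap turned with DESeq2 (-0.015), its size factors (-0.015), upper quartile scaling (-0.00240), no filter (-0.022), the 1 CPM filter (-0.00158), the 7 libraries (-0.0065), without Il-17ra-Cre replicates 1 and 2 (-0.52) and without Il-17rc-Cre replicates 1 and 3 (-0.11), with a range of -0.17 to 0.23. Nrgn turned under voom (-0.84) and in the 7 libraries without Il-17ra-Cre replicate 3 (-0.80), with a range of -0.82 to 0.60. Without Il-17ra-Cre replicates 1 and 2 the value was -0.14 for Olig1, -0.33 for Olig2, -0.57 for P2ry12, -0.28 for Ubd, -2.53 for Igha, 0.52 for Snap25 and 0.59 for Slc17a7, and without Il-17rc-Cre replicates 1 and 3 it was -0.18 for Gbp2 and 0.19 for Hes5. Leaving out 1 library put Snap25 between -0.65 and 0.11 and Slc17a7 between -0.97 and 0.053.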

Other observations

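Neat1, a long non-coding RNA that stays in the nucleus and is not translated, was at 51.4, 78.1 and 12.7 CPM in Il-17ra-Cre and 2.88, 12.3, 3.55 and 7.58 CPM in Il-17rc-Cre. It passed as higher in Il-17ra-Cre (log2 fold change 2.84 ± 0.62, edgeR adjusted p = 0.0473) and was the 1 of 8 nuclear-retained RNAs to do so, against 1.38% of all tested genes. The list median was 1.17, which was 0.68 without Il-17rc-Cre replicates 1 and 3 and 0.10 with Il-17ra-Cre replicate 3 as the 1 library of its group. Cell cycle genes had a median of 0.93 over 18 members, with 0 passed in edgeR, 6 higher at an unadjusted p under 0.05, 1 called by DESeq2 and 11 by voom. Their median was 0.94 without Il-17ra-Cre replicate 3 and 0.96 with it alone, but 0.42 without Il-17rc-Cre replicates 1 and 3.

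Genes of the extracellular matrix had a median of -0.67 over 22 tested members and GABA-A receptor genes one of -0.37 over 12. The matrix median was -0.21 without Il-17rc-Cre replicate 2, -1.03 without Il-17rc-Cre replicates 1 and 3 and -1.33 with Il-17ra-Cre replicate 3 alone, and the GABA-A median was -0.73 without Il-17ra-Cre replicate 3. In edgeR 0 passed in either list, with 1 and 0 higher and 3 and 5 lower at an unadjusted p under 0.05. DESeq2 called 1 higher and 1 lower matrix genes and 3 lower GABA-A receptor genes, and voom called 1, 1 and 2.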
